A study of Mus musculus with 8 samples.

Results

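Whole BM cells of sick Gfi1 KD mice were compared with those of young Gfi1 KD mice, 2 mice against 2, to describe which protein-coding genes were gained or lost when the myeloproliferative disease (MPN) had set in. These were 4 of the 8 libraries of the series, and they were taken by the words sick and young in the sample titles. All mice were C57Bl6. The KD allele has a human GFI1 cDNA knocked into the mouse gene, together with a floxed neo cassette that lowers its expression, and it was carried by both groups. The sick mice were 187 and 78 days old, and the young mice were 39 and 42 days old and not sick. The labels call the disease AML, whereas the paper calls it MPN, and the paper's name is used here. The other 4 libraries came from mice without Gfi1 (KO), 2 old ones of 158 and 101 days and 2 young ones of 48 and 44 days, all without AML by their labels, and they served to ask whether a change was also present between young and old animals of another genotype. Every sick mouse was older than every young mouse, so within the KD mice age and disease cannot be told apart.

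Gfi1 is a transcriptional repressor of haematopoietic cells that recruits histone-modifying partners such as LSD1 (Kdm1a) and CoREST (Rcor1) to DNA. It restrains monocytic and permits neutrophil and lymphoid development, so that BM with little Gfi1 holds many immature myeloid cells. In an MPN, myeloid production outgrows its controls and can displace the other tenants of the marrow, which are B-cell precursors, erythroblasts with the macrophages that nurse them, and the stromal cells that lay down bone and secrete growth factors. In bulk samples such as these, fewer cells of a type and less RNA per cell cannot be told apart.

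The libraries held 26642067 and 30139409 counts on genes in the sick KD mice and 39212193 and 32037260 in the young KD mice. Both sick libraries stood apart in their composition. Reads outside annotated genes made up 42.0% and 38.8% of their uniquely aligned reads against 28.2% and 33.8% in young KD. Mitochondrial genes took 1.42% and 1.16% of the counts against 0.687% and 0.787%, histone genes took 3.34% and 4.05% against 1.65% and 1.5%, and small non-coding RNAs took 3.48% and 4.85% against 1.73% and 1.87%. Of the 74 snoRNA genes tested, 54 were higher in sick KD and 0 lower, against 9.45% of all genes that were higher. The part of these shares in the results below was not tested. Xist was present in all 8 libraries, at 1789 and 1406 CPM in sick KD, above the 718 and 941 CPM of young KD. Mouse Gfi1 (ENSMUSG00000029275) does not check the KD labels, since the KD allele expresses a human cDNA, and whether its reads were counted on the mouse gene was not tested. In CPM, the count divided by the TMM-scaled size of its library, it was at 5.37 and 7.0 in sick KD and at 6.08 and 6.90 in young KD. These values overlapped, and the log2 fold change was -0.07 (SE 0.22, edgeR adjusted p = 0.848). The libraries labelled KO held more of it, between 13.2 and 29.9 CPM when all 8 libraries were scaled together, so counts of this gene go against a simple reading of that label, and KO below means the libraries labelled so.

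Of 12656 protein-coding genes tested, 1086 (8.58%) were higher and 1613 (12.7%) were lower in sick KD BM at a threshold of 0.05 for the p-value of the edgeR quasi-likelihood F-test, after Benjamini-Hochberg adjustment over the 14656 genes of any class that were tested. Losses were larger than gains. Of the genes past the threshold, 846 were at least 2-fold lower and 266 at least 2-fold higher, and 161 were at least 8-fold lower against 5 at least 8-fold higher. The median log2 fold change over all genes tested was 0.01. With the trend in GC content and transcript length removed, 2190 were higher and 2011 lower, so that 52.1% of the calls were gains in place of 40.2%. Without the 39-day young mouse 300 genes were higher and 817 lower, and without the 42-day young mouse 624 were higher and 1347 lower. With 2 mice in each group the smallest exact permutation p is 0.333, so single genes rest on the fit across all genes.

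**Figure D1:**
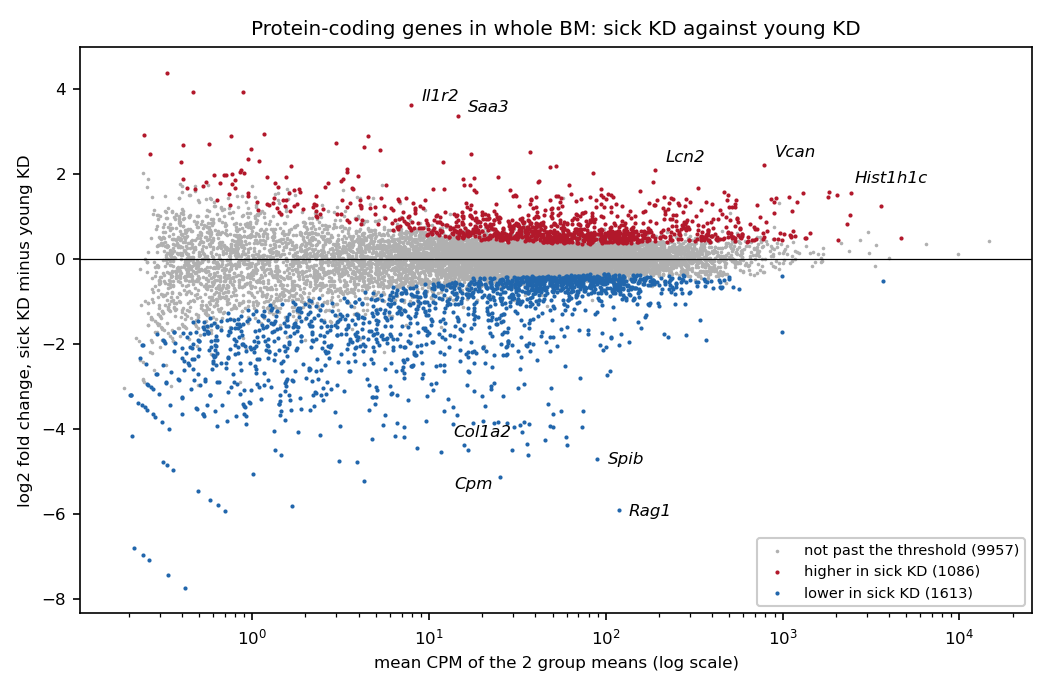
Protein-coding genes by the mean of the group means in CPM (x axis, log scale) and the log2 fold change of sick KD over young KD (y axis), each point 1 gene. The 1613 genes lower in sick KD reach much further from 0 than the 1086 higher ones. At the lower left edge are genes with 0 counts in both sick libraries, whose fitted fold change is not a bound.

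The gene lists that describe the marrow split into few gained and many lost ones. Gains were found among neutrophil granule and receptor genes, the mitochondrial genome and histones. Losses were found in nearly every measured gene of the B-cell and erythroid lists and in most of the macrophage, stroma, MHC class II and interferon-stimulated lists. Monocyte, progenitor, cell cycle, p53 target and nuclear respiratory chain lists had medians between -0.18 and 0.22. Small medians can still lean to 1 side. The cell cycle list had 34 log2 fold changes below 0 and 6 above, and the nuclear respiratory chain list 8 below and 41 above. The counts of each list below stand against 8.58% higher and 12.7% lower among all protein-coding genes. A list near these shares was called about as often as all protein-coding genes. Whether a list differs from them was not tested.

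**Figure D2:**
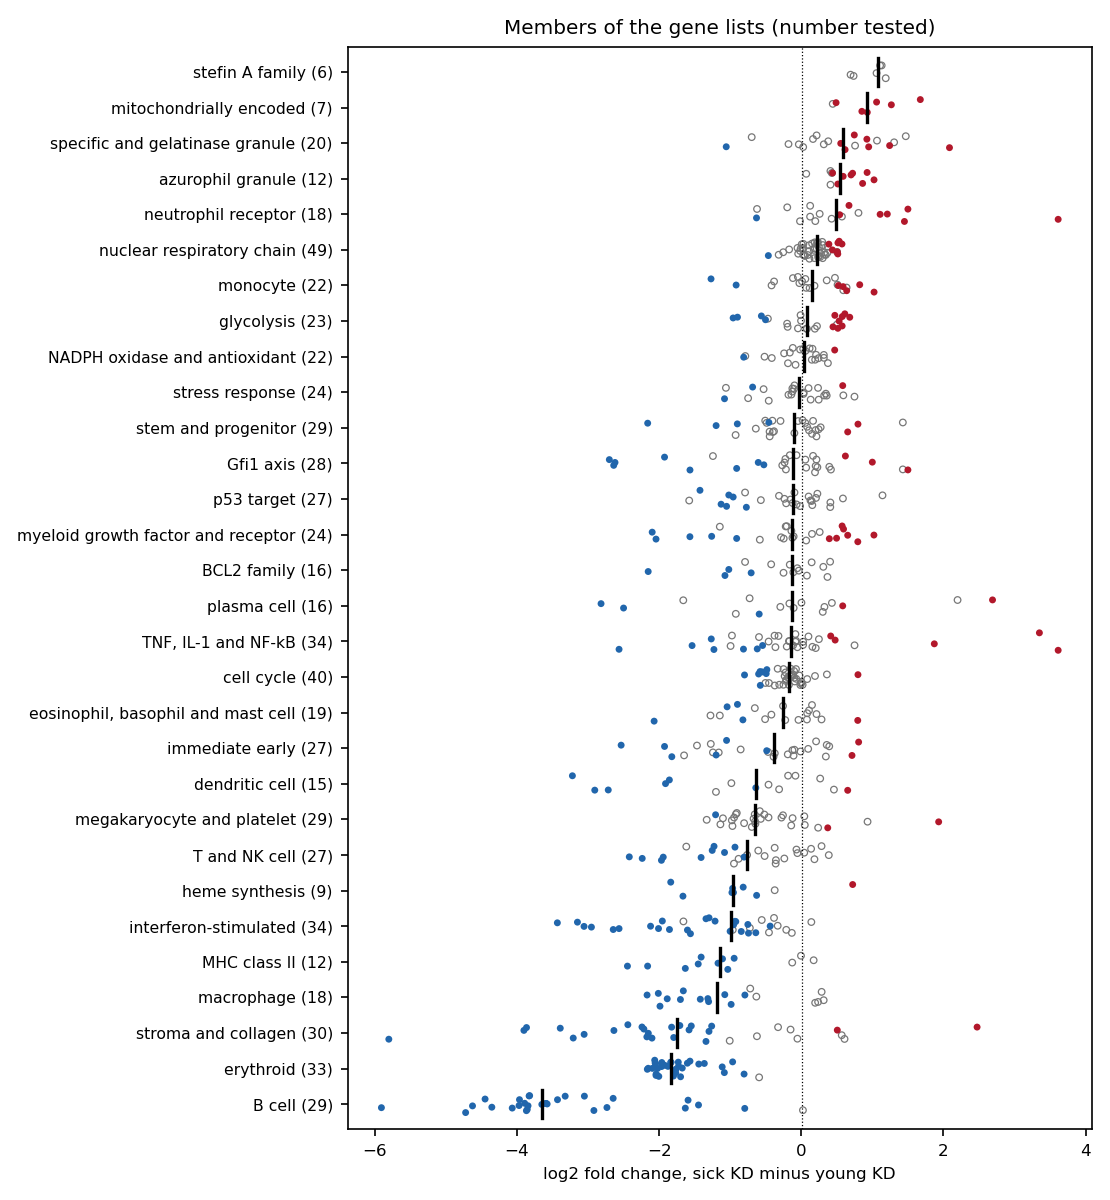
Log2 fold change of sick KD over young KD for each tested member of 30 gene lists, with lists ordered by their median (black bar). Red points are higher and blue points lower past the threshold, open points are not past it, and the dotted line is the median of all genes tested (0.01). The B cell list has a median of -3.65 and the erythroid list one of -1.83, whereas the azurophil granule list has a median of 0.55.

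Il1r2 had the largest gain among protein-coding genes of at least 10 CPM. Il1r2 (ENSMUSG00000026073, chr1:40074079-40125231 on the plus strand of GRCm38), the decoy receptor that binds IL-1 without signalling, was at 19.7 CPM in the 187-day and 9.71 CPM in the 78-day sick mouse, against 1.15 and 1.24 CPM in the young mice. Both sick mice lay far above both young mice, with a log2 fold change of 3.62 (SE 0.38, edgeR adjusted p = 0.00496), or 12.3-fold. Saa3, an acute-phase serum amyloid protein, was at 30.6 and 22.3 CPM against 1.88 and 3.34 CPM, with a log2 fold change of 3.35 (SE 0.30, edgeR adjusted p = 0.00414). Vcan (ENSMUSG00000021614), which encodes versican, a matrix proteoglycan made by monocytes, was the most abundant of this group, at 1455 and 1117 CPM against 191 and 369 CPM. That is a mean of 1286 ± 239 (SD, n = 2) against 280 ± 126 (SD, n = 2) and a log2 fold change of 2.20 (SE 0.32, edgeR adjusted p = 0.00968). Cd33, a sialic acid-binding receptor of myeloid cells, was at 107 and 52.4 CPM against 14.9 and 20.6 CPM (log2 fold change 2.17). Ms4a4a, a tetraspan surface protein of macrophages, was at 73.3 and 54.2 CPM against 7.79 and 14.8 CPM (log2 fold change 2.50). That both sick mice lay above both young mice was a condition for choosing these genes, so it is not a result. The 187-day mouse was the higher of the 2 sick mice in all of them.

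Others of the most gained genes have varied roles. Crispld2, a secreted protein that binds lipopolysaccharide, rose by 2.47 on the log2 scale, Gpnmb, a transmembrane glycoprotein of macrophages, by 2.27 and Dpep2, a membrane dipeptidase, by 2.17. Selp, which encodes P-selectin of platelets and endothelium, was at 36.4 and 41.6 CPM against 7.89 and 12.6 CPM (log2 fold change 1.93, edgeR adjusted p = 0.00608). Zbtb16, the transcription factor PLZF, was at 25.9 and 30.8 CPM against 6.40 and 8.91 CPM (log2 fold change 1.89). The lipid transporter genes Abca6 and Abca13 rose by 1.84 and 1.81, and the clock gene Per1 was at 57.0 and 72.1 CPM against 26.8 and 9.83 CPM. The young mice themselves differed widely in Per1, and its log2 fold change of 1.81 was no longer past the threshold without the 187-day (adjusted p = 0.0533) or the 78-day sick mouse (adjusted p = 0.0738). Among genes of at least 100 CPM, Zmiz1, a transcriptional coactivator, rose by 1.52, and Fkbp5, a co-chaperone of the glucocorticoid receptor, rose by 1.51.

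**Figure D3:**
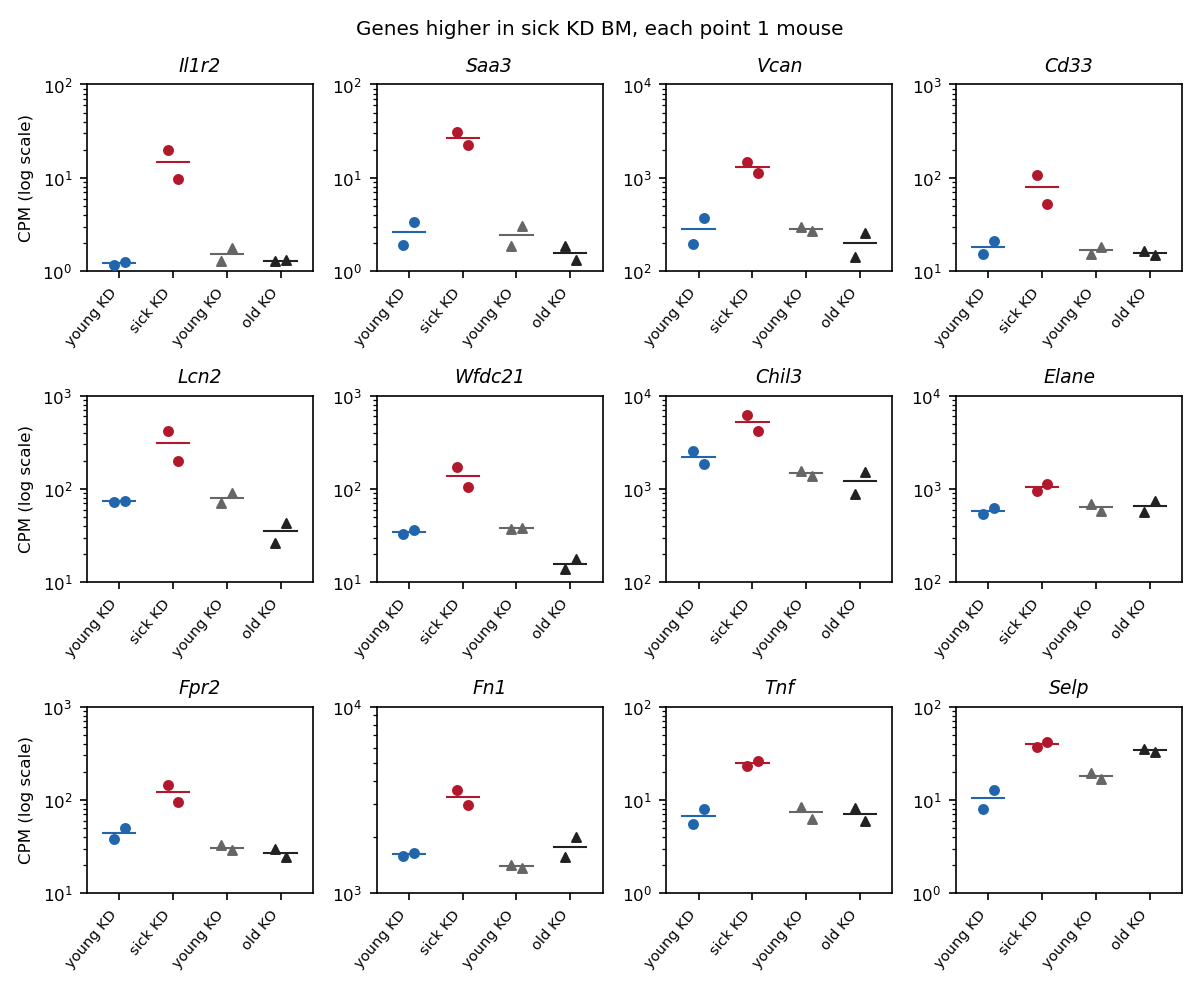
CPM (log scale, TMM over all 8 libraries) of 12 genes higher in sick KD BM, each point 1 mouse and each bar a group mean of 2 mice. The sick KD points lie above both young KD points in all 12 panels, which for the genes of largest gain was a condition of the choice. In Selp the old KO points also lie above the young KO points.

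Neutrophil granule genes rose in part. Azurophil granules are made first, in promyelocytes. The list named after them has 12 genes, not all of which encode granule proteins. Of these 12, 8 were higher and 0 lower, with a median log2 fold change of 0.55. Elane, neutrophil elastase, was at 941 and 1127 CPM against 526 and 611 CPM (log2 fold change 0.86, SE 0.14, edgeR adjusted p = 0.0136). Ms4a3, a marker of granulocyte-monocyte progenitors, was at 349 and 316 CPM against 150 and 177 CPM (log2 fold change 1.02), and the protease inhibitor genes Serpinb1a and Cst7 rose by 0.93 and 0.72. Mpo, myeloperoxidase, was at 2859 and 3395 CPM against 2251 and 2391 CPM, and with a log2 fold change of 0.43 it was not past the threshold (edgeR adjusted p = 0.0642). These changes depended on the young mice. Without the 39-day young mouse 1 of the 12 genes was called, with Elane, Serpinb1a and Cst7 at adjusted p of 0.0985, 0.0721 and 0.0640, and without the 42-day young mouse 5 were.

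Specific and gelatinase granules are made later, in myelocytes and metamyelocytes. Of their 20 genes, 7 were higher and 1 lower, with a median of 0.59, and 3 were higher without the 39-day young mouse and 11 without the 78-day sick mouse. Lcn2 (ENSMUSG00000026822), the siderophore-binding protein lipocalin 2, was at 414 and 198 CPM against 70.5 and 73.6 CPM (log2 fold change 2.09, SE 0.32, edgeR adjusted p = 0.0116). Chil3, a chitinase-like protein of neutrophil and monocyte precursors, was at 6059 and 4120 CPM against 2497 and 1801 CPM (log2 fold change 1.24). Mmp8, neutrophil collagenase, rose by 0.95 and Ceacam1, an adhesion receptor, by 0.75, whereas Retnlg, a resistin-like protein of mature neutrophils, fell by 1.06. Mmp8 was not past the threshold without the 39-day young mouse (adjusted p = 0.0789). Outside these lists Wfdc21, a small WAP-domain protein, was at 170 and 103 CPM against 32.2 and 35.4 CPM (log2 fold change 2.01, edgeR adjusted p = 0.00608).

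Other genes of the specific and gelatinase granule list, and the stefin A genes, did not share one pattern. S100a8 and S100a9, the subunits of calprotectin, were high in the 187-day sick mouse alone. S100a8 was at 2094 and 632 CPM against 465 and 637 CPM (log2 fold change 1.31, edgeR adjusted p = 0.113), and S100a9 was at 1086 and 279 CPM against 300 and 352 CPM (edgeR adjusted p = 0.208). Ltf, lactoferrin, was at 22.9 and 6.82 CPM against 23.5 and 9.92 CPM, and Camp, the cathelicidin precursor, at 9.32 and 3.03 CPM against 7.47 and 3.46 CPM, so the groups overlapped in both. The 6 stefin A genes tested, near-identical copies between which reads can be split, had a median of 1.08 with 0 past the threshold, and their summed level was 19.3 CPM in the 187-day and 2.58 CPM in the 78-day sick mouse. That sum was 4.96 and 5.95 CPM in the young mice, which lie between the sick ones, and without the 78-day sick mouse 5 of the 6 were higher.

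Among receptors of neutrophils and their precursors, 7 of 18 were higher and 1 lower, with a median of 0.48. Fpr1 and Fpr2, which sense formyl peptides, rose by 1.5 and 1.45 on the log2 scale, and Fpr2 was at 143 and 94.3 CPM against 37.0 and 49.8 CPM. Clec4e and Clec4d, C-type lectins that bind microbial glycolipids, rose by 1.11 and 1.21. Csf3r, the G-CSF receptor, was at 162 and 156 CPM against 117 and 149 CPM and was not past the threshold (edgeR adjusted p = 0.226). The one receptor lost was Ptafr, for platelet-activating factor (log2 fold change -0.63), and it was not past the threshold without the 39-day young mouse (adjusted p = 0.113).

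Of 22 monocyte genes, 5 were higher and 2 lower, against 8.58% and 12.7% of all protein-coding genes, with a median of 0.15. The share lower was thus not above that of all genes. Fn1, fibronectin, was at 3540 and 2929 CPM against 1556 and 1624 CPM (log2 fold change 1.02, SE 0.14, edgeR adjusted p = 0.00802). Ly6c2, the surface marker of inflammatory monocytes, was at 1338 and 1438 CPM against 917 and 1016 CPM (log2 fold change 0.52), and Ms4a6c rose by 0.82. Cx3cr1, the fractalkine receptor of patrolling monocytes, was at 79.2 and 102 CPM against 151 and 192 CPM (log2 fold change -0.92), and the scavenger receptor gene Cd36 fell by 1.27. Irf8, the transcription factor of monocyte and dendritic cell fate, was at 415 and 546 CPM against 414 and 509 CPM and overlapped. Ly6c2 and Ms4a6c were not past the threshold without the 39-day young mouse (adjusted p = 0.358 and 0.182), and 1 of the 22 was then higher. Ly6c2 was also lost without the 42-day one (adjusted p = 0.147). Cd36 was lost without the 39-day young mouse or the 187-day sick mouse. Its log2 fold change was between -1.70 and -0.81 with 1 mouse left out.

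Most genes on the list for tissue macrophages of the marrow went the other way. Of 18 genes tested, 12 were lower and 0 higher, with a median of -1.19, and between 10 and 12 were lower with any 1 mouse left out. Marco, Folr2 and Lyve1 were too low to test. Of the 18, 4 had a positive log2 fold change. The summed level of the list was 874 and 775 CPM in sick KD against 799 and 886 CPM in young KD, so the sums overlapped. C1qa (ENSMUSG00000036887), a subunit of complement C1q, was at 3.48 and 2.78 CPM against 11.8 and 13.1 CPM (log2 fold change -1.99, SE 0.20, edgeR adjusted p = 0.00489). Mrc1, the mannose receptor, was at 12.4 and 13.7 CPM against 32.7 and 37.1 CPM (log2 fold change -1.42). Axl, a receptor for apoptotic cells, fell by 1.30 and Spic, the transcription factor of iron-recycling macrophages, fell by 1.89. Adgre1, which encodes F4/80 and is also made by monocytes, was at 181 and 157 CPM against 124 and 163 CPM and was not past the threshold (edgeR adjusted p = 0.322).

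Dendritic cell genes were lower in 6 of 15 and higher in 1, with a median of -0.64. Siglech, a receptor of plasmacytoid dendritic cells, was at 3.20 and 1.71 CPM against 17.7 and 14.3 CPM (log2 fold change -2.72, SE 0.31, edgeR adjusted p = 0.00568). Zbtb46, the transcription factor of conventional dendritic cells, fell by 1.91 and the chemokine receptor gene Ccr9 by 2.91. Ly6d, which early B cells also make, fell by 3.22. The gene gained was Flt3, the cytokine receptor of progenitors, at 48.0 and 44.1 CPM against 24.7 and 33.9 CPM, and it was not past the threshold with any 1 of the 39-day young, the 187-day sick or the 78-day sick mouse left out (adjusted p = 0.237, 0.0967 and 0.0552).

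The B-cell programme was lost almost whole. Of 29 genes, 28 were lower and only Btla was not, with a median log2 fold change of -3.65, and 27 or 28 were lower with any 1 mouse left out. Rag1 (ENSMUSG00000061311, chr2:101638282-101649501 on the minus strand), the recombinase that assembles antigen receptor genes, was at 0.592 and 6.96 CPM against 288 and 177 CPM. The counts behind these values were 15 and 200 in the sick mice and 11786 and 5989 in the young mice. Its log2 fold change was -5.91 (SE 0.80, edgeR adjusted p = 0.00820). Rag2, its partner, was at 0.197 and 1.25 CPM against 19.7 and 13 CPM, and Dntt, which adds bases to the junctions, at 0.790 and 4.73 CPM against 94.9 and 44.6 CPM. All 3 recombination genes were among the largest losses, for which groups that did not overlap were a condition of the choice. The 187-day mouse had the least of each.

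Transcription factors and receptors of the lineage moved likewise. Spib, an Ets factor, was at 2.49 and 10.4 CPM against 178 and 167 CPM (log2 fold change -4.72), Pax5 fell by 3.87, Ebf1 fell by 3.65, and Pou2af1, an octamer coactivator, fell by 3.59. Cd79a and Cd79b, the signalling chains of the B-cell receptor, fell by 3.85 and 2.73, Vpreb3 of the pre-B-cell receptor fell by 4.07 and Ms4a1, which encodes CD20, fell by 3.58. Il7r, the receptor for the cytokine that early B cells need, was at 6.36 and 7.31 CPM against 63.7 and 49.8 CPM (log2 fold change -3.05). The median over the B-cell genes, as a log2 deviation from the mean of the young mice, was -4.56 in the 187-day and -2.86 in the 78-day sick mouse.

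Other genes among the most lost ones were not on a list. They include Tnfrsf19, a TNF receptor family member (log2 fold change -4.56), Cplx2, a complexin of vesicle fusion (-4.49), Col5a3, a collagen chain (-4.49), Akap12, a scaffold of protein kinase A (-4.40), Gfra1, a GDNF receptor (-4.38), Chst3, a sulfotransferase (-4.20), and Nuak1, a kinase (-4.19). Cd72, a B-cell inhibitory receptor that is on the B-cell list, was at 1.07 and 5.46 CPM against 74.1 and 62.1 CPM. Among genes of at least 100 CPM, Cecr2, a chromatin remodelling factor, fell by 3.96, Bcl7a, a subunit of a chromatin remodelling complex, by 2.53 and Ets1, a lymphoid transcription factor, by 2.64. In all 15 of the most lost genes of at least 10 CPM the 187-day sick mouse had a lower CPM than the 78-day one.

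Plasma cell genes did not fall with those of B cells. Of 16 genes, 2 were higher and 3 lower, with a median of -0.14. Jchain, which joins IgA and IgM, was at 106 and 103 CPM against 85.5 and 139 CPM and overlapped. Xbp1, the factor of the secretory programme, rose by 0.58, although it was not past the threshold without the 39-day or the 42-day young mouse (adjusted p = 0.189 and 0.120). Irf4, shared with B cells, was at 13.8 and 21.4 CPM against 132 and 117 CPM (log2 fold change -2.82), and Mzb1, a chaperone of immunoglobulin, was at 3.36 and 3.59 CPM against 21.2 and 18.1 CPM (log2 fold change -2.50). Ighg2b, a constant region, was at 626 and 136 CPM against 41.8 and 76.2 CPM, and its log2 fold change of 2.69 was 1.21 without the 187-day sick mouse (adjusted p = 0.0581).

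T and NK cell genes were lower in 10 of 27 and higher in 0, with a median of -0.76. Those lost included Eomes, a T-box factor, falling by 2.24, and Ncr1, an activating NK receptor, by 2.42. Il2rb, the receptor chain for IL-2 and IL-15, fell by 0.93 and Cd4 by 1.97. With TMM over all 8 libraries, Eomes was low, at 1.24 and 1.02 CPM against 5.83 and 4.90 CPM. Low levels were also found for Ncr1 (0.799 and 1.41 CPM against 5.63 and 6.38 CPM) and Cd4 (1.20 and 1.80 CPM against 5.46 and 6.41 CPM). Cd3d, a chain of the T-cell receptor complex, was low everywhere, at 1.90 and 1.32 CPM against 1.81 and 1.98 CPM, and was not past the threshold. Eosinophil, basophil and mast cell genes were lower in 4 of 19 and higher in 1. Ccr3, the eotaxin receptor, was at 1.93 and 1.78 CPM against 7.67 and 7.93 CPM (log2 fold change -2.07, SE 0.22, edgeR adjusted p = 0.00489), whereas Prg2, major basic protein, was at 192 and 229 CPM against 249 and 254 CPM (edgeR adjusted p = 0.185).

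Erythroid genes fell together. Of 33 tested, 32 were lower and 0 higher, with a median of -1.83, and Epb41 alone was not past the threshold. Epor (ENSMUSG00000006235, chr9:21958897-21963506 on the minus strand), the erythropoietin receptor, was at 2.65 and 2.68 CPM against 13.4 and 8.58 CPM (log2 fold change -2.04, SE 0.27, edgeR adjusted p = 0.00788). Gata1 and Klf1, the master factors of the lineage, fell by 1.70 and 2.17. The membrane genes Aqp1, a water channel, Sptb, a spectrin chain, and Ermap, a blood group protein, fell by 2.15, 1.88 and 2.06. Gfi1b, the paralogue of Gfi1 that erythroid cells use, was at 5.77 and 4.56 CPM against 18.1 and 12.4 CPM (log2 fold change -1.57).

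The 2 young mice differed in this programme. The summed level of the list was 1780 and 2269 CPM in the sick mice and 8429 CPM in the 39-day but 3854 CPM in the 42-day young mouse, so the groups did not overlap but the size of the loss depended on which young mouse was taken. With the 187-day sick mouse left out 15 of the 33 were lower, with the 78-day sick mouse left out 23, and with a young mouse left out 28 or 33. The globin genes were the least sure of the list. Hbb-bt was at 102 and 153 CPM against 642 and 243 CPM (log2 fold change -1.80, edgeR adjusted p = 0.0355), and Hba-a2 at 34.3 and 58.4 CPM against 284 and 98.0 CPM (log2 fold change -2.04). Neither was past the threshold without either sick mouse (adjusted p of 0.115 and 0.0550 for Hbb-bt and of 0.114 and 0.0504 for Hba-a2), and both have near-identical copies. Tent5c, a poly(A) polymerase, fell by 2.09 and was lost without the 187-day sick mouse (adjusted p = 0.0522).

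Heme synthesis genes fell as well, with 7 of 9 lower and a median of -0.95. Cpox, a late enzyme of the pathway, was at 23.5 and 29.8 CPM against 105 and 64.2 CPM (log2 fold change -1.67, SE 0.25, edgeR adjusted p = 0.0108). Alad, Uros and Ppox fell by 0.98, 0.95 and 0.63. The gene that rose was Alas1, the first enzyme in cells outside the erythroid lineage, at 189 and 240 CPM against 116 and 144 CPM (log2 fold change 0.72). Between 1 and 8 of the 9 were lower with 1 mouse left out, and the count of 1 was without the 187-day sick mouse, while without the 78-day sick mouse or the 39-day young mouse it was 2. Alas1 was not past the threshold without either of the latter (adjusted p = 0.0501 and 0.169).

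Megakaryocyte and platelet genes had a median of -0.65, but only 2 of 29 were higher and 1 lower. Apart from Selp, Nbeal2 of platelet granules rose by 0.37, and Mylk, a myosin kinase, fell by 1.21. Itga2b, integrin αIIb, was at 66.1 and 38.1 CPM against 32.3 and 81.2 CPM and Pf4, platelet factor 4, at 16.1 and 9.08 CPM against 14.6 and 34.7 CPM. Both pairs overlapped, since the 42-day young mouse was high and the 39-day one low. Without the 39-day young mouse 13 of the 29 were lower, and without the 42-day young or the 78-day sick mouse 0 were. Nbeal2 and Mylk were not past the threshold without the 78-day sick mouse (adjusted p = 0.0541 and 0.0927) or the 42-day young mouse (adjusted p = 0.245 and 0.0740), and Nbeal2 also not without the 39-day young mouse (adjusted p = 0.399).

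Stem and progenitor genes moved little, with 2 of 29 higher, 4 lower and a median of -0.10. These counts are near the shares of all protein-coding genes, 8.58% higher and 12.7% lower. Kit, the receptor for stem cell factor, was at 44.4 and 47.4 CPM against 36.5 and 46.2 CPM, Cd34 at 103 and 141 CPM against 91.1 and 115 CPM, and Meis1 and Hoxa9, transcription factors of immature cells, had log2 fold changes of 0.17 and 0.21 (edgeR adjusted p of 0.331 and 0.419). Cdk6, a kinase of cell cycle entry, was at 149 and 160 CPM against 85.7 and 92.1 CPM (log2 fold change 0.80, SE 0.11, edgeR adjusted p = 0.00814). Sox4, which early B cells also need, fell by 2.16, Erg by 0.90 and Myb by 0.46. Erg and Myb were not past the threshold without the 39-day young mouse (adjusted p = 0.0746 and 0.271), and Myb also not without the 42-day one (adjusted p = 0.148).

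Transcripts of the stroma and collagen list were mostly lower. Of 30 stroma and collagen genes, 21 were lower and 2 higher, with a median of -1.75, and between 18 and 21 were lower with any 1 mouse left out. Col1a2 (ENSMUSG00000029661), a chain of type I collagen, was at 3.04 and 5.15 CPM against 55.2 and 68.3 CPM (log2 fold change -3.90, SE 0.26, edgeR adjusted p = 0.00262), and Col1a1, the other chain, at 2.21 and 4.84 CPM against 37.4 and 66.7 CPM. Collagen also varied among the KO mice. With TMM over all 8 libraries Col1a2 was at 13.5 and 36.1 CPM in old KO and at 58.7 and 26.4 CPM in young KO. Sparc, a matrix protein of bone, fell by 2.24 in sick KD and Igfbp5, which binds insulin-like growth factors, by 2.21. Bglap, osteocalcin, had counts in only 1 of the 2 sick libraries, at 0.0395 CPM, against 1.0 and 1.51 CPM, and its neighbouring copies can take its reads.

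Niche factors of the same list fell too. Cxcl12, the chemokine that holds stem cells and B-cell precursors in the marrow, was at 13.9 and 9.19 CPM against 52.9 and 50.8 CPM (log2 fold change -2.17, SE 0.20, edgeR adjusted p = 0.00414). Kitl, stem cell factor, was at 1.38 and 1.11 CPM against 2.76 and 3.23 CPM (log2 fold change -1.26), although it was not past the threshold without the 78-day sick or the 42-day young mouse (adjusted p = 0.0654 and 0.0701). The 2 genes higher were Tgfb1, a fibrogenic cytokine that many blood cells make, at 62.2 and 73.9 CPM against 46.9 and 48.9 CPM (log2 fold change 0.51), and Timp1, an inhibitor of matrix proteases, at 0.355 and 0.557 CPM against 0.122 and 0.0296 CPM. Timp1 was not past the threshold with any 1 mouse left out (adjusted p between 0.0552 and 0.160), and Tgfb1 not without the 78-day sick, the 39-day young or the 42-day young mouse (adjusted p = 0.0530, 0.189 and 0.0991).

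**Figure D4:**
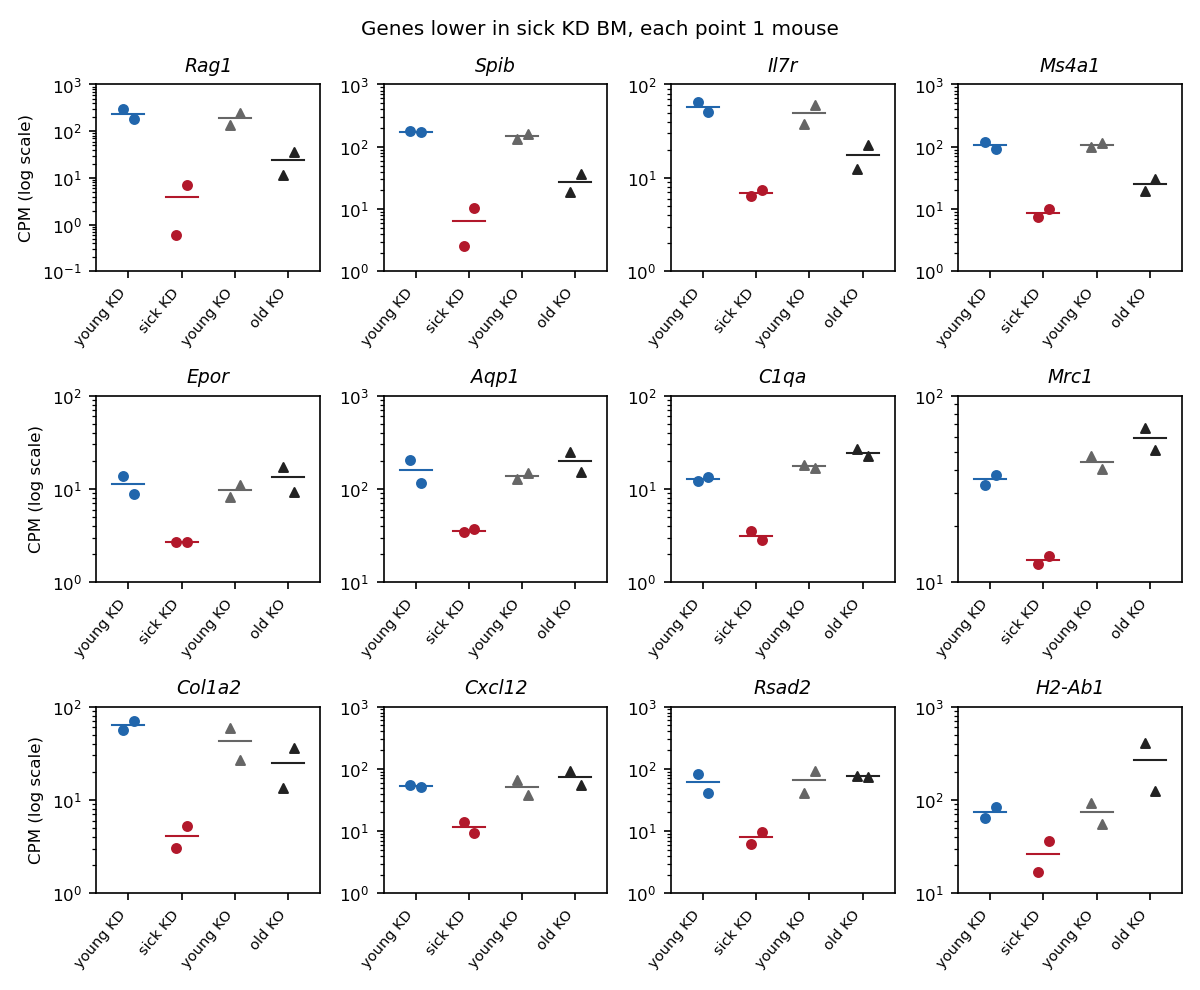
CPM (log scale, TMM over all 8 libraries) of 12 genes lower in sick KD BM, each point 1 mouse and each bar a group mean of 2 mice. The sick KD points lie below both young KD points in all 12 panels, which for the genes of largest loss was a condition of the choice. In the B-cell genes of the top row the old KO points also lie below the young KO points, whereas in C1qa, Mrc1 and H2-Ab1 the old KO points lie above the young KO points.

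Interferon-stimulated genes were lower. These genes are switched on when interferon activates STAT proteins, which with IRF9 bind an element of the promoter called ISRE. Of 34 genes, 24 were lower and 0 higher, with a median of -0.98, and between 17 and 26 were lower with 1 mouse left out. Iigp1, an immunity-related GTPase, was at 0.355 and 0.557 CPM against 4.08 and 4.14 CPM (log2 fold change -3.15, SE 0.32, edgeR adjusted p = 0.00489). Rsad2 (ENSMUSG00000020641), the antiviral enzyme viperin, was at 6.08 and 9.57 CPM against 81.0 and 40.6 CPM (log2 fold change -2.95). Cxcl10, a T-cell chemokine, was at 0.513 and 0.696 CPM against 3.61 and 3.61 CPM (log2 fold change -2.56), Rtp4 fell by 2.01 and Ifit1, which binds viral RNA, by 1.85. Isg15, a ubiquitin-like modifier, was at 0.711 and 2.78 CPM against 5.71 and 5.45 CPM and was not past the threshold (edgeR adjusted p = 0.0738).

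The promoters of these genes were read for motifs, because the members fell together. The ISRE was searched as GAAA, any 2 bases and GAAA again, on both strands, in the 250 bases before each start that RefSeq gives on GRCm38.p6. It was found in 10 of the 17 interferon-stimulated genes that were lower and have an entry (58.8%), against 341 of 9984 tested protein-coding genes with an entry (3.42%). The GATA motif AGATAA (reverse complement TTATCT) was found before 8 of 23 erythroid genes that were lower (34.8%), against 7.48% of all, and the EBF motif CCCNNGGG, its own reverse complement, before 3 of 22 B-cell genes that were lower (13.6%), against 18.4% of all. Over each whole list, lower or not, the motif was before 13 of 24 interferon-stimulated, 8 of 24 erythroid and 3 of 23 B-cell genes. The lists were made by gene function, so a difference from all genes does not bear on the fall. These matches describe the sequence only. The following 4 promoters are shown because they hold the ISRE (Rsad2, Cxcl10 and Ifit1) or the GATA motif (Epor), whose matches are in capitals, and each runs 5′ to 3′ on the strand of the gene and ends 1 base before the start. They are at chr12:26456453-26456702 (minus strand), chr5:92348890-92349139 (minus), chr19:34640639-34640888 (plus) and chr9:21963577-21963826 (minus).
Rsad2: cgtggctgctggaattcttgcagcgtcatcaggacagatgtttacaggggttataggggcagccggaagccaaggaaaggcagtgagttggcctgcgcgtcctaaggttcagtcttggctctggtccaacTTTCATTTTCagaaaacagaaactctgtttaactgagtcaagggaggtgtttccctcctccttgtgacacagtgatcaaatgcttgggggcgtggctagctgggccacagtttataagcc
Cxcl10: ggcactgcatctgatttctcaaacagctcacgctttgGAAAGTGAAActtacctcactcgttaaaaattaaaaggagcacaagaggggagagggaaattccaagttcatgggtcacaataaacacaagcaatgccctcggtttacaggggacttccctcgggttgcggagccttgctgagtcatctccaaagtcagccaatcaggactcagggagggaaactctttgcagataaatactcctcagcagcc
Ifit1: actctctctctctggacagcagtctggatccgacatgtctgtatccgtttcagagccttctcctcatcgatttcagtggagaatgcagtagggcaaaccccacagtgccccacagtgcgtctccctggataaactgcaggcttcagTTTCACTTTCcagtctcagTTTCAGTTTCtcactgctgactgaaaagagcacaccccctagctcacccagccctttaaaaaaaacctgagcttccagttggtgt
Epor: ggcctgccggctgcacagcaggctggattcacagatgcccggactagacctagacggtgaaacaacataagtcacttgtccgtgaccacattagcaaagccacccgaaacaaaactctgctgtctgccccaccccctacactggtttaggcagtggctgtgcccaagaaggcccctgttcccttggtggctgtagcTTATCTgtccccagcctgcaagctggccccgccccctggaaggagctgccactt
The first base of the match lies 120 bases before the start in Rsad2, 213 in Cxcl10 and 54 in Epor. Ifit1 has 2 matches, which begin 104 and 85 bases before its start.

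MHC class II genes, which B cells, dendritic cells and macrophages use to present antigen, were lower in 9 of 12 and higher in 0, with a median of -1.14. H2-Ab1 was at 16.6 and 36.2 CPM against 62.6 and 81.9 CPM (log2 fold change -1.45, edgeR adjusted p = 0.0322) and Cd74, the invariant chain, at 44.4 and 110 CPM against 224 and 255 CPM (log2 fold change -1.63). H2-Ob, which is made mainly by B cells, was at 4.74 and 6.34 CPM against 32.3 and 28.2 CPM (log2 fold change -2.45, SE 0.18, edgeR adjusted p = 0.00327), and H2-Eb1 fell by 1.41. All 4 were lower in both sick mice. With all 8 libraries in one fit 4 of the 12 were lower, and H2-Ab1, Cd74 and H2-Eb1 were not (adjusted p = 0.0892, 0.0581 and 0.0648).

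Inflammatory genes did not move as a group. Of 34 genes of TNF, IL-1 and NF-κB signalling, 5 were higher and 7 lower, with a median of -0.14. Tnf itself, the cytokine, was at 22.9 and 25.9 CPM against 5.44 and 7.93 CPM (log2 fold change 1.87, SE 0.21, edgeR adjusted p = 0.00546), and the chemokine gene Ccl9 rose by 0.48, a gain lost without either young mouse (adjusted p = 0.296 and 0.267). The NF-κB subunits Relb and Nfkb2 fell by 1.27 and 0.81, and the inhibitor Nfkbie fell by 1.23. Il1b was at 7.15 and 8.15 CPM against 7.13 and 7.13 CPM, and Il6 at 0.553 and 0.487 CPM against 0.659 and 0.533 CPM, neither past the threshold. Immediate early genes were lower in 6 of 27 and higher in 2, with a median of -0.39. The phosphatase genes Dusp5 and Dusp2, which switch off MAP kinases, fell by 2.53 and 1.82, and Spred1, another inhibitor of this pathway, rose by 0.81.

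Among growth factor genes and receptors of myeloid cells, 7 of 24 were higher and 5 lower, with a median of -0.13. Receptor chains gained were Csf2rb2, of the IL-3 receptor (76.7 and 68.1 CPM against 40.3 and 43.1 CPM, log2 fold change 0.80), Csf2ra, of the GM-CSF receptor (0.57), and Il6ra, of the IL-6 receptor (0.50). Csf2ra and Il6ra were lost without the 39-day (adjusted p = 0.134 and 0.183) or the 42-day young mouse (adjusted p = 0.126 and 0.217). The feedback inhibitors of cytokine signalling diverged, with Socs3 at 42.5 and 55.4 CPM against 21.7 and 26.5 CPM (log2 fold change 1.02), Socs2 falling by 2.10 and Socs1 by 1.57. Socs1 was lost without the 187-day sick mouse (adjusted p = 0.0514). Jak2, the kinase these receptors use, was at 138 and 118 CPM against 136 and 145 CPM (edgeR adjusted p = 0.440).

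Partners and targets of Gfi1 were higher in 3 and lower in 8 of 28, with a median of -0.11. Id2 and Id1, inhibitors of helix-loop-helix factors, were both gained, Id2 at 174 and 143 CPM against 57.1 and 55.1 CPM (log2 fold change 1.5, SE 0.13, edgeR adjusted p = 0.00365) and Id1 at 50.1 and 57.0 CPM against 23.7 and 29.9 CPM (log2 fold change 1.0). Id3, which is high in lymphocytes, fell by 2.70, and Rcor2, a CoREST family member, by 2.62. Cebpa and Cebpe, the granulocytic factors, were not past the threshold, with log2 fold changes of 0.39 and -0.24 (edgeR adjusted p of 0.191 and 0.237).

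In the cell cycle list 1 of 40 was higher, which was Cdk6, and 7 lower, with a median of -0.18. Mki67, the proliferation marker, was at 2746 and 2055 CPM against 1900 and 1840 CPM (edgeR adjusted p = 0.155) and Top2a, a topoisomerase of dividing cells, at 1494 and 1246 CPM against 1570 and 1528 CPM (edgeR adjusted p = 0.369). E2f2 fell by 0.80, Bub1b, Ccnd2 and Rrm1 by between 0.55 and 0.58, and without the 39-day young mouse 0 of the list were lower. Bub1b, Ccnd2 and Rrm1 were also lost without the 42-day young mouse (adjusted p = 0.0573, 0.0506 and 0.0917).

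In the p53 target list 6 of 27 were lower and 0 higher, with a median of -0.12. Rrm2b, Sesn1, Btg2 and Trp53inp1 fell by 0.96, 0.77, 1.05 and 1.13. Trp53 itself was at 46.5 and 61.4 CPM against 65.9 and 59.1 CPM, and Mdm2, its ubiquitin ligase, at 82.9 and 67.5 CPM against 95.3 and 81.9 CPM, neither past the threshold (edgeR adjusted p of 0.361 and 0.268). Of 16 BCL2 family genes, 4 were lower and 0 higher. These were the guardians Bcl2l1, at 24.2 and 24.8 CPM against 54.8 and 48.5 CPM (log2 fold change -1.07, SE 0.12, edgeR adjusted p = 0.00542), and Mcl1 (-0.71), and the killers Bbc3 (-1.02) and Bok (-2.15). Mcl1 was not past the threshold without the 39-day young mouse (adjusted p = 0.139), nor was Bbc3 without that mouse (adjusted p = 0.107) or the 187-day sick mouse (adjusted p = 0.0815). Bok was past it only in 1 of the 4 fits with a mouse left out, the one without the 42-day young mouse. Sesn1 was lost without the 39-day young mouse (adjusted p = 0.0505). Without that mouse 3 p53 targets and 1 BCL2 family gene were lower. In the stress response list 2 of 24 were lower, Ddit3 and Atf4, and Xbp1 was higher. Ddit3 and Atf4 were lost without the 187-day sick mouse (adjusted p = 0.0746 and 0.0787) or the 39-day young mouse (adjusted p = 0.137 and 0.189), and Ddit3 also without the 78-day sick mouse (adjusted p = 0.0535).

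The mitochondrial transcripts that could be tested rose, and their nuclear partners much less. The list has 13 genes encoded in the mitochondrion. Of these, mt-Nd3, mt-Nd4l, mt-Co2, mt-Co3, mt-Atp6 and mt-Atp8 had too few counts to test, and the reason was not tested. Of 7 genes encoded in the mitochondrion and tested, 6 were higher, with a median of 0.93, and 3 were higher without the 39-day young mouse. mt-Nd5, a subunit of complex I, was at 599 and 407 CPM against 137 and 178 CPM (log2 fold change 1.68, SE 0.22, edgeR adjusted p = 0.00784), and mt-Nd2 rose by 1.27. Of 49 nuclear genes of the respiratory chain, 7 were higher and 1 lower, with a median of 0.22, and 0 were called without the 39-day or without the 42-day young mouse. Sdhb and Sdha, subunits of the same complex II, moved in opposite directions, with log2 fold changes of 0.57 and -0.46. Neither was past the threshold without the 39-day (adjusted p = 0.160 and 0.248) or without the 42-day young mouse (adjusted p = 0.0965 and 0.134).

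In glycolysis 8 of 23 genes were higher and 4 lower, with a median of 0.08. Gapdh was at 443 and 489 CPM against 299 and 282 CPM (log2 fold change 0.68) and Ldha, lactate dehydrogenase, rose by 0.52, whereas the hexokinase genes Hk1 and Hk2 fell by 0.56 and 0.50 and Slc16a1, a lactate transporter, by 0.96. Without the 39-day young mouse 0 were higher and 1 was lower, and without the 42-day young mouse 0 were higher. Among 22 NADPH oxidase and antioxidant genes, 1 was higher and 1 lower, with a median of 0.04. The one lower was Gclc, which starts glutathione synthesis and fell by 0.81.

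Histone genes, a set chosen after their values were seen, were higher in 52 of 56 and lower in 0, with a median of 1.30. Hist1h1c, a linker histone, was at 3329 and 3886 CPM against 1291 and 1193 CPM (log2 fold change 1.54, SE 0.13, edgeR adjusted p = 0.00365) and Hist4h4, a core histone, at 689 and 716 CPM against 234 and 236 CPM (log2 fold change 1.58). Most histone mRNAs lack a poly(A) tail, and many are near-identical copies between which reads can be split. The gain ran beside the larger share of small non-coding RNA and of reads outside genes in the same 2 libraries, and their part in it was not tested.

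The KO mice showed which of these changes also separated old from young animals of another genotype. Between old KO and young KO 13 of 12837 protein-coding genes were higher (0.101%) and 85 lower (0.662%) by the same test, and 81 of these 85 were also lower in sick KD. Without the 44-day young KO mouse 0 were higher and 9 lower, and without the 101-day old KO mouse 80 were higher and 123 lower. Without the 158-day old KO mouse the counts were 7 and 44, and without the 48-day young KO mouse 5 and 55. The B-cell list was again the one most affected, with 19 of 29 lower and a median of -1.96. Rag1 was at 11.7 and 36.0 CPM in old KO against 133 and 250 CPM in young KO (values of the KO mice use TMM over all 8 libraries), and with a log2 fold change of -2.99 it was not past the threshold there (edgeR adjusted p = 0.112). Ms4a1 was at 19.6 and 30.2 CPM against 98.4 and 116 CPM (log2 fold change -2.10, edgeR adjusted p = 0.0293). Of the gained genes, Selp also rose between young and old KO (log2 fold change 0.90, edgeR adjusted p = 0.0355).

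The difference between the KD change and the KO change was tested as an interaction over all 8 libraries, and 377 protein-coding genes (2.91%) moved further up and 618 (4.78%) further down in KD. Among the genes gained in sick KD this difference was past the threshold in 360 of 1086, and among those lost in 573 of 1613. The same 4 KD libraries picked these genes and enter the difference, so these shares are raised by the choice itself. The difference was past the threshold in 12 of 18 macrophage genes, 17 of 33 erythroid genes, 14 of 34 interferon-stimulated genes and 7 of 12 MHC class II genes, all lower in KD. In the KO mice 0 genes of these 4 lists were called, and the medians were 0.37, 0.51, 0.01 and 0.88. In the B-cell list 6 of 29 were past it.

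Single genes give examples of this difference, and some held in more of the alternatives than others. C1qa was at 26.7 and 22.4 CPM in old KO against 18.1 and 16.8 CPM in young KO, and the interaction was -2.48 on the log2 scale (edgeR adjusted p = 0.00769). Lcn2 was at 26.6 and 43.7 CPM in old KO against 71.3 and 90.4 CPM in young KO, a log2 fold change of -1.20 that was not past the threshold (edgeR adjusted p = 0.138), and the interaction was 3.29 (edgeR adjusted p = 0.0144). H2-Ab1 was at 409 and 125 CPM against 93.7 and 55.6 CPM (interaction -3.29, edgeR adjusted p = 0.0449). The interactions of C1qa, Iigp1 (-3.03), Ets1 (-1.90), Saa3 (3.98), Id2 (1.37), Zmiz1 (1.53) and mt-Nd5 (2.24) were past the threshold in all 10 alternatives tried for this test, 8 of which left out 1 mouse. Those of Lcn2 and H2-Ab1 were past it in fewer, 8 and 4 of the 10. The number of differences depended on each library. With 1 mouse left out, between 38 and 656 genes were further up and between 45 and 843 further down. Both lowest counts were without the 39-day young KD mouse and both highest without the 78-day sick KD mouse. Without the 187-day sick KD mouse they were 117 and 158, without the 42-day young KD mouse 173 and 345, and without 1 KO mouse between 46 and 223 up and between 48 and 394 down.

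**Figure D5:**
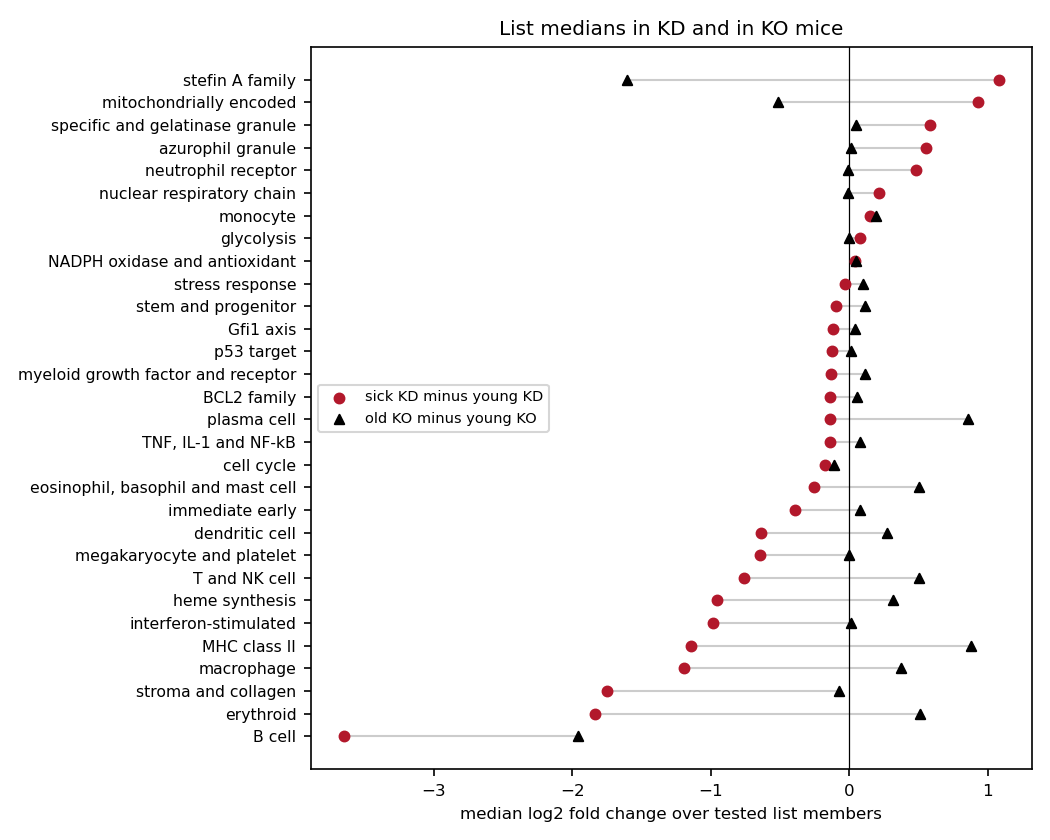
Median log2 fold change of each gene list between sick KD and young KD (red circles) and between old KO and young KO (black triangles), lists ordered by the KD value. The B-cell list lies far below 0 in both genotypes (-3.65 and -1.96), whereas the erythroid (-1.83 and 0.51), macrophage (-1.19 and 0.37) and MHC class II lists (-1.14 and 0.88) lie on opposite sides of 0.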

How the data were processed

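RNA-seq counts of whole BM from 8 mice were used, of which 4 (2 sick KD, 2 young KD) entered the comparison. Libraries were made with a stranded mRNA kit. The authors mapped reads with TopHat2 2.0.10 (mm10), assigned them to Ensembl genes by HTSeq, and deposited raw counts per gene for each mouse, without normalization. The strand setting and the Ensembl release are not given in the sources used here. The authors' own comparisons with DESeq were not used here.

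The 5 tally lines of HTSeq were dropped from each file. Reads outside genes were between 26.9% and 42.0% of uniquely aligned reads. Symbols and coordinates came from GENCODE M21 on GRCm38, in which 40340 of 41214 identifiers had a symbol. Genes were filtered with filterByExpr (minimum count 10), normalized by TMM and tested with the quasi-likelihood test of edgeR 4.0.16 in R 4.3.3, with Benjamini-Hochberg adjustment and a threshold of 0.05. The SE was taken from the test statistic F, as the size of the log2 fold change over the square root of F. Between 26642067 and 39212193 counts per library lay behind the 4 KD profiles, and the spread between mice was above counting error (chi-square per degree of freedom 35.9 in sick KD and 21.8 in young KD). Nothing in the labels groups the libraries by a sequencing batch, and p-values measure the spread between these mice only. KO mice were tested the same way, and the interaction was fitted on all 8 libraries. Scripts were tested on simulated data.

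Named genes were the 15 largest gains and 15 largest losses at a mean of at least 10 CPM, and the same at 100 CPM, among protein-coding genes past the threshold whose groups did not overlap, leaving out X, Y, immunoglobulin and T-cell receptor genes, then the 4 members of each list with the smallest p in each direction, the first marker of each cell type, Gfi1, and members named as not past the threshold. Bglap, C1qb, Cd74, Cd79a, Ebf1, Fpr1, H2-Ab1, Hbb-bt, Ifit1, Klf1, Pax5 and the histone list were added after their values were seen. The members and the lists were chosen with earlier results of these data known. Alternatives were DESeq2 1.42.0, other scalings and filters, removal of the trend in GC content and length, and leaving out each mouse. Some selected genes are not printed.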

Additional observations from a re-analysis of the deposited data

Results flagged for a closer look

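The change from young to diseased KD mice differed from the change from young to old KO mice, by the test of the difference itself, in 377 protein-coding genes that moved further up in KD and in 618 that moved further down. One gene was past the threshold in opposite directions in the 2 genotypes. Wfdc21 rose in sick KD (log2 fold change 2.01, edgeR adjusted p = 0.00608) and fell in old KO (log2 fold change -1.26, edgeR adjusted p = 0.0297), with a difference of 3.28 (edgeR adjusted p = 0.00769). Its level was 13.8 and 17.7 CPM in old KO against 37.7 and 38.1 CPM in young KO.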

How the results depend on the processing

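No paired analysis was possible because the labels give each mouse its own number and no number that groups share, and the replicate numbers used here only follow accession order. With the trend in GC content and length removed, 2190 genes were higher in sick KD, and the log2 fold changes of Gfi1 and Itga2b were 0.085 and 0.089. With 1 mouse left out, between 300 and 1389 genes were higher and between 817 and 1713 lower. The difference between KD and KO gave 689 genes up and 1095 down with DESeq2 and 910 and 1614 with no filter beyond 1 count, and with 1 mouse left out between 38 and 656 up and between 45 and 843 down. Old against young KO gave 83 higher and 197 lower with DESeq2, and with 1 mouse left out between 0 and 80 higher and between 9 and 123 lower. No gene past the threshold in the main comparison was reversed among those named. Below it, leaving out 1 mouse gave log2 fold changes between -0.86 and 0.82 for Camp, -0.22 and 1.74 for S100a9, -0.27 and 0.11 for Gfi1 (its interaction between -1.12 and 0.041), -0.51 and 0.0038 for Cd3d, -0.15 and 0.24 for Irf8, -0.65 and 0.67 for Itga2b, -1.29 and 0.57 for Ltf, -0.019 and 0.31 for Kit and -0.43 and 0.27 for Jchain. The causes were not tested. Over 221 named genes, 732 of 884 values with a mouse left out and 2146 of 2183 others kept their direction and side of the threshold. The named genes were chosen from these same data, mostly by size of change or smallest p, so these counts do not describe genes at large. With 2 mice a group, small changes cannot be resolved at this spread.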
